A study of Mus musculus with 12 samples.

Results

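The messenger RNAs of 31 lipoprotein genes were followed in mouse hepatocytes that had been given small interfering RNAs (siRNAs) against 1 or both of a pair of liver transcription factors. The genes encode apolipoproteins, the proteins that load lipid onto them and carry them through the secretory pathway, and the transporters, lipases and receptors that remodel and clear lipoproteins. They were taken by symbol from a fixed list that was chosen with earlier results of these data known. Counts of members set beside all tested genes are therefore descriptions only. All 31 symbols were found among the 55385 genes of the files and 30 of them were abundant enough to be tested, among 15090 tested genes in all. Hepatocytes were isolated from 3 mice of unstated strain, sex and age and plated on collagen. They were kept in Williams' E medium with 10% serum, 2 mM glutamine and 100 nM dexamethasone. The medium also held 5% of an insulin, transferrin and selenium supplement and 1% penicillin and streptomycin. The cells of each mouse were divided over 4 groups for 48 h. One group received siRNAs against both Hnf4a and Cebpa (double knockdown), one an siRNA against Hnf4a (siHnf4a), one an siRNA against Cebpa (siCebpa) and one a control siRNA (siCon), which gave 12 libraries of total RNA with 3 libraries a group. The series asks how transcription of the albumin gene stays stable, and the lipoprotein genes were read from the same libraries.

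Hepatocytes build very-low-density lipoprotein (VLDL) in the endoplasmic reticulum, where apolipoprotein B is loaded with triglyceride as it is made, and the particle then leaves in enlarged transport carriers. High-density lipoprotein (HDL) starts with apolipoprotein A-I, which takes up phospholipid and cholesterol at the cell surface. In plasma both particles exchange small apolipoproteins, lose triglyceride to lipases and return to the liver through receptors. HNF4α, the product of Hnf4a, is a nuclear receptor that binds regulatory regions of many of these genes in liver, and C/EBPα, the product of Cebpa, is a basic leucine zipper factor of hepatocyte and adipocyte genes.

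The libraries held 22453445 to 25008195 estimated read counts each. Hnf4a stood at 11.3 to 13.6 TPM (a transcript abundance corrected for length and library size) in double knockdown cells and 16.6 to 20.9 TPM in siHnf4a cells, against 54.3 to 138.1 TPM in siCon cells. Cebpa stood at 47.9 to 63.0 TPM in double knockdown cells and 13.7 to 17.5 TPM in siCebpa cells, against 103.1 to 126.5 TPM in siCon cells. Cebpa was thus lowered less in the double knockdown than in siCebpa (log2 difference 1.65 ± 0.13, adjusted p = 5.11e-05). The hepatocyte markers found, 12 of 13, summed to 8178 to 11254 TPM in double knockdown cells, 10786 to 14954 TPM in siHnf4a cells, 19500 to 23111 TPM in siCebpa cells and 22554 to 26945 TPM in siCon cells. A few abundant genes carry these sums: the median log2 fold change of the 12 markers was -0.51 in the double knockdown (1 called higher and 1 lower), 0.16 in siHnf4a (3 and 1) and -0.05 in siCebpa cells (0 and 0). All 31 lipoprotein genes together made up 0.267 to 0.385% of TPM in double knockdown cells, 0.329 to 0.497% in siHnf4a cells, 0.469 to 0.688% in siCebpa cells and 0.519 to 0.599% in siCon cells. In cultures of whole cell populations, fewer cells of a type and less RNA per cell cannot be told apart.

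Promoter sequences are shown first for the members whose window holds letters of the kind that HNF4α or C/EBPα bind. RefSeq promoters (GRCm38.p6, 250 bases before to 50 bases after a start site) were available for 22 of the 31 genes and were searched on both strands. The HNF4 type CAAAGNNCA was in the windows of 4 of these 22 genes, which is 18.2%, and in 6.62% of the 10744 tested genes with a promoter. The C/EBP type TTGCNNAA was in 5 of 22, or 22.7%, against 10.4% of tested genes. The capitals below mark the matched letters, read 5′ to 3′ along the strand of the gene, so that a match on the other strand appears as its complement. Apob carries an HNF4 and a C/EBP match within 1 stretch of 61 bases (chr12:7977554-7977614, plus strand, 123 to 63 bases before the start):
Apob: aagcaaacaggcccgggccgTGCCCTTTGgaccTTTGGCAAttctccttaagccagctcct
The other HNF4 matches are those of Abcg5 (chr17:84683188-84683236, minus strand), Apoh (chr11:108395184-108395232, plus strand) and Lipc (chr9:70934856-70934904, minus strand):
Abcg5: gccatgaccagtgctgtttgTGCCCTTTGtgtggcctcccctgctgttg
Apoh: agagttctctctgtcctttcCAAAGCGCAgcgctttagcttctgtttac
Lipc: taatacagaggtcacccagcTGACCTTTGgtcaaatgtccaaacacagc
C/EBP matches are shown for Pltp (chr2:164857842-164857889, minus strand) and Angptl8 (chr9:21835390-21835437, plus strand):
Pltp: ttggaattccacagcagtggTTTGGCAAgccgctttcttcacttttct
Angptl8: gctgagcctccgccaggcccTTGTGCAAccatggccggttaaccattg
Apoa2 and Vldlr hold the remaining C/EBP matches. The sense-strand letters TATAAA were in 7 of the 22 genes, or 31.8%, against 5.82% of tested genes. These are matches of letters in a window and not measured binding.

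**Figure D1:**
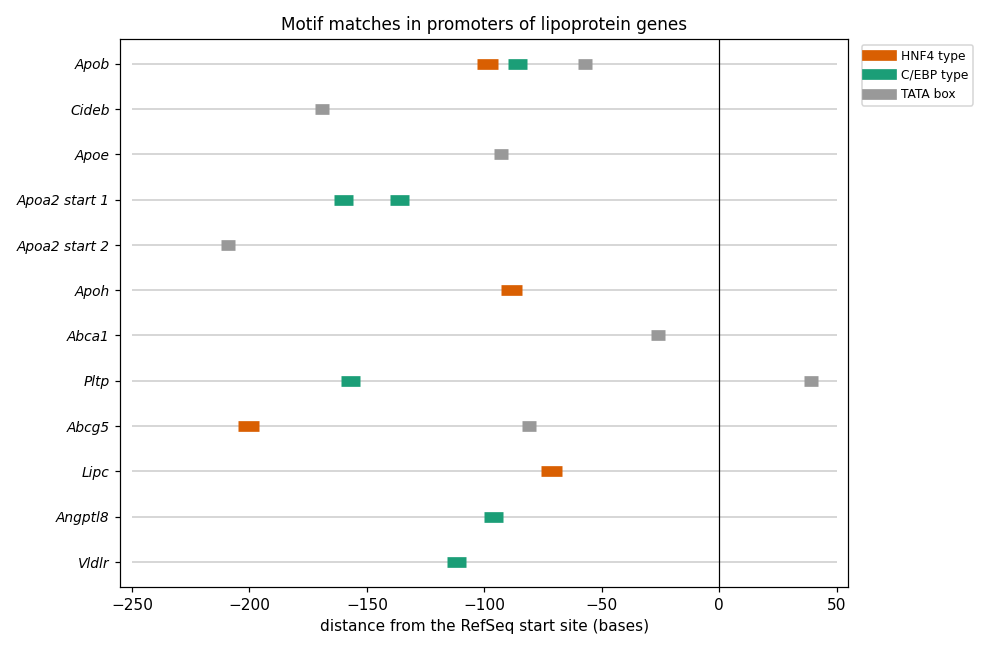
Matches of the HNF4 and C/EBP types and of the TATA letters in the RefSeq promoters of lipoprotein genes that hold at least 1 match, by distance in bases from the start site (0). Apob has an HNF4 match close to a C/EBP match, and the HNF4 matches of Apoh and Lipc also lie within the last 113 bases before the start.

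Against siCon, the members that passed the test were mostly lower after Hnf4a siRNA, alone or with Cebpa siRNA, and few passed after Cebpa siRNA alone. In the double knockdown 0 of 30 members were higher and 10 were lower, where 6.9% of all tested genes were higher and 7.13% lower. In siHnf4a cells 3 members were higher and 8 lower, where 7.24% of all tested genes were higher and 7.29% lower. In siCebpa cells 1 member was higher and 2 were lower, where 2.94% of all tested genes were higher and 1.72% lower. These 3 comparisons share the siCon libraries. Every call of a member, 51 over the 7 comparisons in all, had the same direction in 3 of 3 mice. These are the libraries that gave the calls, so the shared direction is no separate support. The median log2 fold change of the 30 members was -0.37 in the double knockdown, -0.13 in siHnf4a cells and -0.19 in siCebpa cells, against 0.00 over all tested genes in each.

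With mouse as a block in the model, which compares each knockdown with the siCon cells of the same mouse, more members passed. The double knockdown then had 0 higher and 14 lower members (13.8% and 15.6% of all tested genes), siHnf4a 8 higher and 13 lower (14.5% and 15.5%), and siCebpa 3 higher and 5 lower (8.73% and 8.11%). On the log2(TPM + 1) scale the median of all genes in siCebpa against siCon moved to -0.118, and there 96 genes were higher and 345 lower, against 444 higher and 260 lower from counts. TPM levels of siCebpa cells below are to be read against that shift, with 0 members higher and 2 lower on that scale.

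**Figure D2:**
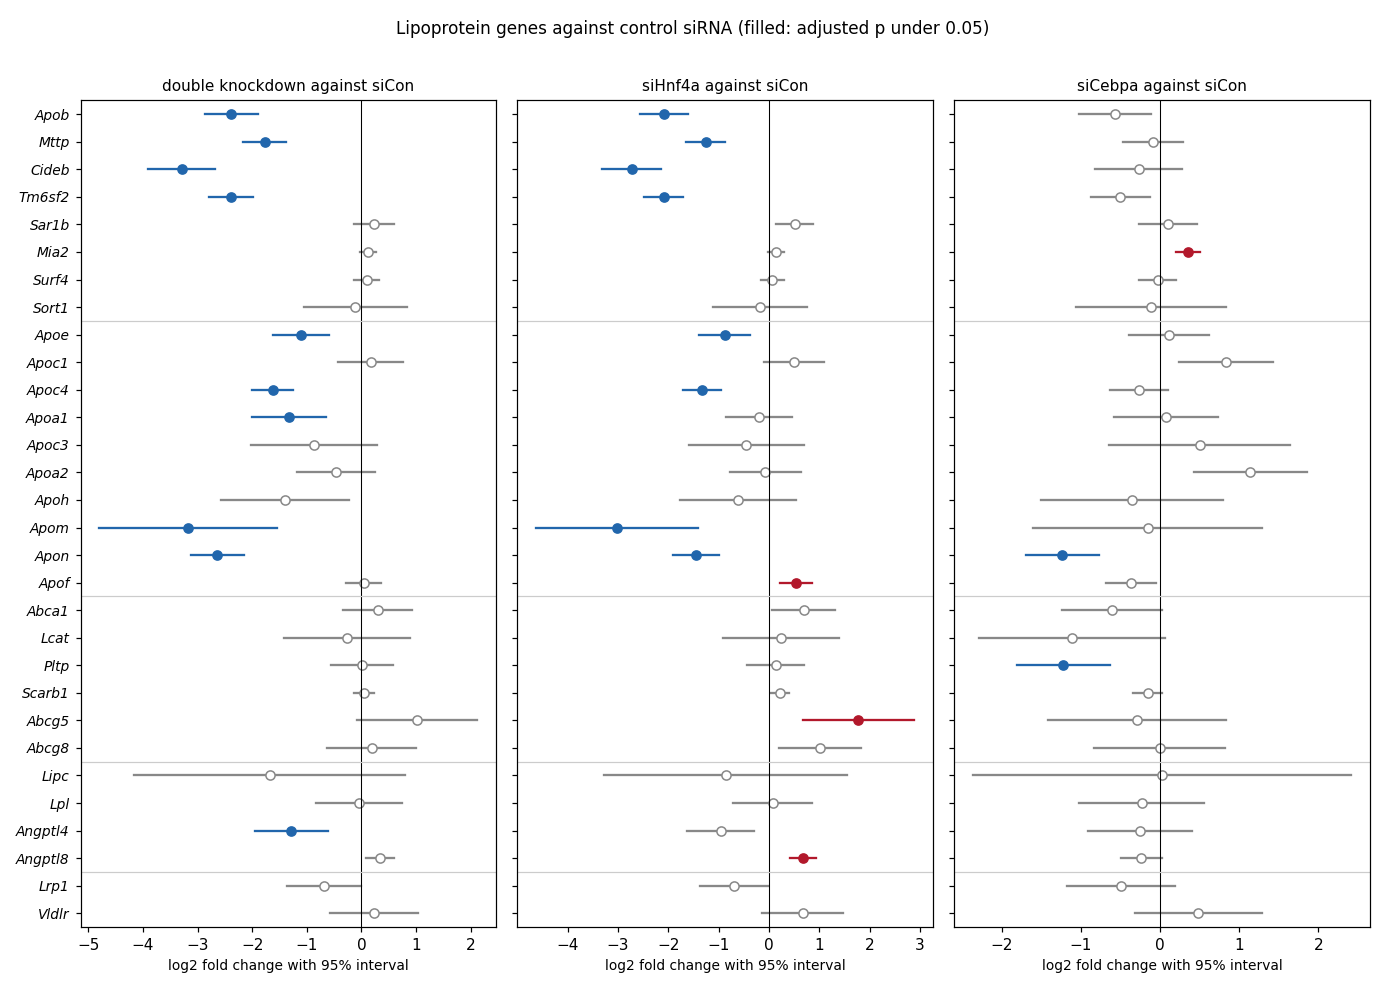
Log2 fold change of the 30 tested lipoprotein genes in double knockdown, siHnf4a and siCebpa cells against siCon cells, with 95% intervals from the edgeR fit (n = 3 libraries a group). Filled points have an adjusted p under 0.05; Apob, Mttp, Cideb and Tm6sf2 at the top are filled and left of 0 in the double knockdown and in siHnf4a cells.

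Of the members that make and lipidate VLDL, Apob, Mttp, Cideb and Tm6sf2 fell in the double knockdown and in siHnf4a cells. Further genes of VLDL assembly, from a separate list given at the end, passed in both directions. Levels are given in TPM in the order of mice 1, 2 and 3, and fold changes come from the counts, as log2 values ± SE. Apob, the structural protein of VLDL, had 37.8, 30.9 and 24.5 TPM in double knockdown cells and 43.0, 40.6 and 29.1 TPM in siHnf4a cells. Apob stood at 143.0, 91.7 and 93.3 TPM in siCebpa cells and 183.1, 140.4 and 170.0 TPM in siCon cells. Double knockdown and siHnf4a cells lay below every siCebpa and siCon culture. Apob was at 19.2% of siCon in the double knockdown (-2.38 ± 0.22, adjusted p = 7.58e-05) and at 23.4% in siHnf4a cells (-2.09 ± 0.21, adjusted p = 0.000187). In siCebpa cells the difference was -0.57 ± 0.21 (adjusted p = 0.149), and with mouse as a block it passed as lower (-0.60 ± 0.15, adjusted p = 0.0213).

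Mttp, the large subunit of the microsomal triglyceride transfer protein that loads lipid onto apolipoprotein B, had 8.48, 7.39 and 8.36 TPM in double knockdown cells and 12.9, 12.2 and 9.05 TPM in siHnf4a cells. Mttp stood at 27.3, 18.1 and 22.3 TPM in siCebpa cells and 25.3, 26.6 and 28.0 TPM in siCon cells. It fell to 29.2% of siCon in the double knockdown (-1.77 ± 0.18, adjusted p = 0.000156) and to 41.8% in siHnf4a cells (-1.26 ± 0.18, adjusted p = 0.00121), with no overlap with siCon. In siCebpa cells it differed by -0.09 ± 0.17 (adjusted p = 0.829), and the ranges overlapped.

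Cideb, a protein of lipid droplets and endoplasmic reticulum that enlarges VLDL, had 4.50, 3.35 and 2.86 TPM in double knockdown cells and 7.55, 4.64 and 3.63 TPM in siHnf4a cells. Cideb stood at 30.4, 27.1 and 21.6 TPM in siCebpa cells and 32.1, 38.2 and 37.1 TPM in siCon cells. Double knockdown and siHnf4a cultures lay below all siCebpa cultures. In TPM the siCebpa cultures lay below all siCon cultures, but in counts scaled to library size these groups overlapped. Of these 4 genes it had the lowest share of siCon left, 10.2% in the double knockdown (-3.29 ± 0.28, adjusted p = 4.28e-05) and 15.1% in siHnf4a cells (-2.73 ± 0.27, adjusted p = 0.000148). In siCebpa cells the difference was -0.27 ± 0.25 (adjusted p = 0.602). Cideb overlaps Nop9 on the opposite strand, and 72.8% of its 31-base words also occur in Nop9 transcripts. The other words of Cideb occur in no other annotated gene. No source used here gives the strand setting, so whether reads from the shared words were assigned to the right gene is not known. Nop9 averaged 36.3 ± 6.21 TPM in double knockdown, 30.2 ± 1.51 TPM in siHnf4a, 31.1 ± 3.74 TPM in siCebpa and 39.3 ± 3.36 TPM in siCon cells (SD, n = 3 each), with a log2 fold change of -0.40 ± 0.09 in siHnf4a (adjusted p = 0.0143).

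Tm6sf2, a membrane protein that supports the lipidation of VLDL, had 2.47, 2.69 and 2.11 TPM in double knockdown cells and 3.31, 2.87 and 3.06 TPM in siHnf4a cells. Tm6sf2 stood at 7.48, 6.95 and 7.09 TPM in siCebpa cells and 8.73, 13.5 and 11.5 TPM in siCon cells. The 3 siCebpa cultures lay between the Hnf4a siRNA cultures and siCon, with no overlap. It fell to 19.0% of siCon in the double knockdown (-2.39 ± 0.18, adjusted p = 2.55e-05) and to 23.4% in siHnf4a cells (-2.10 ± 0.18, adjusted p = 4.54e-05). For siCebpa the log2 fold change was -0.50 ± 0.17 (adjusted p = 0.12), which passed with mouse as a block (adjusted p = 0.0455). Each call for Apob, Mttp, Cideb and Tm6sf2 against siCon was kept when any of the 12 libraries was left out and in the 9 other alternatives. Mttp shares 8.13% of its words with genes on the opposite strand, chiefly Trmt10a, which was higher in the double knockdown (0.45 ± 0.12, adjusted p = 0.0283) and in siHnf4a cells (0.41 ± 0.12, adjusted p = 0.0408).

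**Figure D3:**
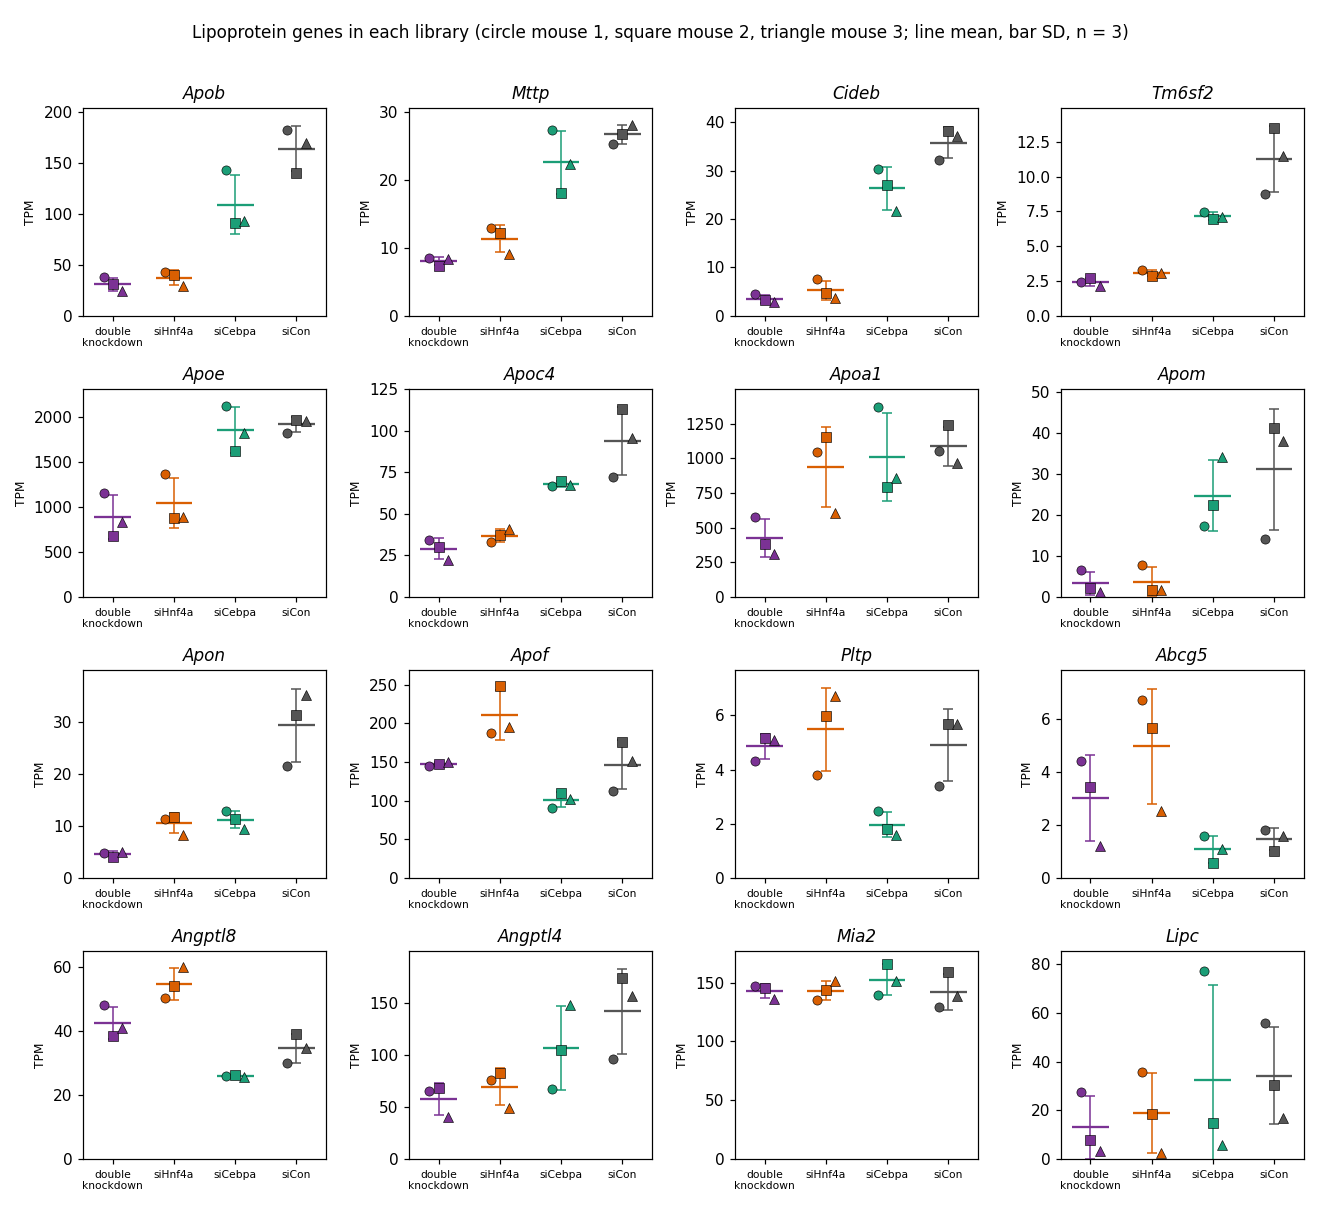
TPM of 16 lipoprotein genes in each of the 12 libraries, by group, with symbols for the mouse, the mean as a line and the SD as a bar (n = 3 libraries a group). Apob, Mttp, Cideb and Tm6sf2 are low in both groups with Hnf4a siRNA, Apon is lowest in the double knockdown, Pltp is lowest in siCebpa cells, and Apoa1 is lowest in the double knockdown.

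Of the export genes, 0 of 4 passed in the double knockdown or in siHnf4a cells. The shares over all tested genes were 6.9% higher and 7.13% lower in the double knockdown, and 7.24% and 7.29% in siHnf4a cells. At such shares 0 of 4 does not set the export genes apart. Surf4, a cargo receptor for lipoproteins leaving the endoplasmic reticulum and the 4th most abundant member in siCon, had 254.5, 275.0 and 297.4 TPM in double knockdown cells and 224.4, 258.9 and 267.6 TPM in siHnf4a cells. Surf4 stood at 192.7, 234.6 and 258.5 TPM in siCebpa cells and 234.5, 252.1 and 254.1 TPM in siCon cells. The double knockdown lay just above siCon, and the single knockdowns overlapped with it. Its log2 fold changes against siCon were 0.10 ± 0.11 in the double knockdown, 0.07 ± 0.11 in siHnf4a and -0.03 ± 0.11 in siCebpa cells, with adjusted p of 0.605, 0.721 and 0.913. Sar1b, the GTPase that starts coat assembly for transport carriers, had 75.2 to 102.4 TPM in double knockdown cells, 95.7 to 124.1 TPM in siHnf4a cells, 67.8 to 85.2 TPM in siCebpa cells and 68.7 to 94.4 TPM in siCon cells. Its change in siHnf4a cells was 0.51 ± 0.17 (adjusted p = 0.0638), and it passed as higher with mouse as a block (adjusted p = 0.00853).

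Mia2, which organises exit sites for large cargo, was the 1 member higher in siCebpa cells. Mia2 had 238.8, 240.0 and 236.9 CPM (counts scaled to library size) in double knockdown cells, 236.5, 237.4 and 247.0 CPM in siHnf4a cells, 249.9, 280.9 and 263.2 CPM in siCebpa cells and 209.8, 222.2 and 214.7 CPM in siCon cells. The siCebpa cultures were above the siCon cultures in every mouse, and the ranges did not overlap. The log2 fold change was 0.35 ± 0.07 (adjusted p = 0.0223), and 0.12 ± 0.07 in the double knockdown and 0.14 ± 0.07 in siHnf4a cells (adjusted p = 0.299 and 0.225). In TPM the siCebpa cultures had 139.7, 166.2 and 151.4 TPM and the siCon cultures 129.3, 158.7 and 138.2 TPM, which overlap. The call was lost on that scale, without a filter on low counts, with only the compared groups, and without mouse 2 or mouse 3 of siCebpa or of siCon. Sort1, a sorting receptor that binds apolipoprotein B, was near the limit of detection with 0.117 to 0.183 TPM in double knockdown cells, 0.0972 to 0.198 TPM in siHnf4a cells, 0.0765 to 0.165 TPM in siCebpa cells and 0.0779 to 0.219 TPM in siCon cells, and passed in no comparison.

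Among the apolipoproteins, Apoe, Apoc1 and Apoc4 lie side by side on chromosome 7 (19678083 to 19699188, GRCm38.p6, minus strand). Apoe and Apoc4 fell after Hnf4a siRNA and Apoc1, between them, did not pass. Apoe, the ligand that takes remnants back into the liver and the most abundant member, had 1152, 675.8 and 831.2 TPM in double knockdown cells and 1366, 874.4 and 890.4 TPM in siHnf4a cells. Apoe stood at 2123, 1618 and 1816 TPM in siCebpa cells and 1823, 1967 and 1956 TPM in siCon cells. All double knockdown and siHnf4a cultures were below all siCebpa and siCon cultures. Apoe fell to 46.4% of siCon in the double knockdown (-1.11 ± 0.23, adjusted p = 0.0098) and to 54.5% in siHnf4a cells (-0.88 ± 0.23, adjusted p = 0.028). The siHnf4a call was lost on log2(TPM + 1) without a filter and without mouse 2 or mouse 3 of siHnf4a or of siCon. Macrophages also make Apoe: the 13 macrophage markers summed to 305.7 to 731.3 TPM in double knockdown, 304.1 to 821.6 TPM in siHnf4a, 301.3 to 979 TPM in siCebpa and 528 to 1033 TPM in siCon cells, and 1 of 11 tested was lower in the double knockdown, 1 in siHnf4a and 0 in siCebpa. The median log2 fold change of the 11 was -1.24 in the double knockdown, -1.01 in siHnf4a and -1.20 in siCebpa cells. The lower marker was Cd14, Timd4 was at 0 in all siHnf4a and all siCebpa libraries, and the part of these cells in the Apoe values was not tested. For bile duct cells, the 5 tested markers had medians of -1.58 in the double knockdown (0 called higher and 2 lower), -1.01 in siHnf4a (1 and 2) and -0.69 in siCebpa cells (0 and 1). Their part in the members' values was not tested.

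Apoc4, a minor VLDL apolipoprotein, had 34.6, 30.2 and 22.2 TPM in double knockdown cells and 33.1, 37.0 and 40.8 TPM in siHnf4a cells. Apoc4 stood at 66.7, 69.9 and 67.6 TPM in siCebpa cells and 72.3, 113.4 and 95.9 TPM in siCon cells. Double knockdown and siHnf4a overlapped with each other and lay below siCebpa. In TPM siCebpa lay just below siCon, but in CPM it overlapped with siCon. It fell to 32.4% of siCon in the double knockdown (-1.63 ± 0.17, adjusted p = 0.000225) and to 39.7% in siHnf4a cells (-1.33 ± 0.17, adjusted p = 0.0007), while siCebpa differed by -0.27 ± 0.17 (adjusted p = 0.405). Of its words 13.2% occur in other genes, among them Gm44805 on the same strand, which stood at 0 to 5.51 TPM. Apoc1, a small apolipoprotein of VLDL and HDL that lies between them, had 188.0, 135.9 and 166.0 TPM in double knockdown cells and 279.9, 194.3 and 156.2 TPM in siHnf4a cells. Apoc1 stood at 272.3, 171.4 and 244.5 TPM in siCebpa cells and 187.1, 123.5 and 137.4 TPM in siCon cells. The 4 groups overlapped, and it passed in none of the 7 comparisons. With mouse as a block it was higher in siHnf4a (0.49 ± 0.15, adjusted p = 0.031) and siCebpa (0.83 ± 0.15, adjusted p = 0.00479) and not in the double knockdown (0.18 ± 0.15, adjusted p = 0.416).

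Apoa1 and Apoc3 are neighbours on chromosome 9 (46228580 to 46235636, opposite strands). Apoa1, the main protein of HDL, had 580.6, 383.0 and 311.6 TPM in double knockdown cells and 1049, 1155 and 608.5 TPM in siHnf4a cells. Apoa1 stood at 1374, 794.8 and 859.8 TPM in siCebpa cells and 1051, 1241 and 968.3 TPM in siCon cells. In TPM the double knockdown cultures were below all others, but in CPM they overlapped with siHnf4a. The 3 other groups overlapped. The log2 fold change was -1.33 ± 0.30 in the double knockdown (adjusted p = 0.0151, 39.9% of siCon), -0.19 ± 0.30 in siHnf4a cells (adjusted p = 0.721) and 0.07 ± 0.30 in siCebpa cells (adjusted p = 0.927). The call was lost without mouse 2 or 3 of the double knockdown or mouse 2 of siCon. Apoc3, which slows lipolysis and remnant uptake, had 586.4, 278.3 and 249.1 TPM in double knockdown cells and 750.3, 505.6 and 279.0 TPM in siHnf4a cells. Apoc3 stood at 1499, 661.7 and 427.0 TPM in siCebpa cells and 924.2, 764.4 and 406.5 TPM in siCon cells. Mouse 1 was highest and mouse 3 lowest in each group, and the ranges overlapped. None of its comparisons passed, but with mouse as a block it was lower in the double knockdown (-0.90 ± 0.17, adjusted p = 0.00266) and in siHnf4a cells (-0.49 ± 0.17, adjusted p = 0.0446).

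Apoa2, the second protein of HDL, had 114.3, 57.7 and 98.6 TPM in double knockdown cells and 159.8, 102.4 and 100.3 TPM in siHnf4a cells. Apoa2 stood at 264.4, 192.8 and 281.3 TPM in siCebpa cells and 163.6, 133.6 and 86.8 TPM in siCon cells. The siCebpa cultures were above all others. Against siCon this was a log2 fold change of 1.14 ± 0.32 that did not pass (adjusted p = 0.0731) and passed with mouse as a block (adjusted p = 0.00752). Apoh, which binds anionic phospholipid, had 84.9, 40.4 and 29.8 TPM in double knockdown cells and 116.2, 112.3 and 40.3 TPM in siHnf4a cells. Apoh stood at 148.6, 92.0 and 49.0 TPM in siCebpa cells and 167.0, 165.7 and 83.7 TPM in siCon cells. Again mouse 1 was highest and mouse 3 lowest in each group. It did not pass against siCon (-1.40 ± 0.53 in the double knockdown, adjusted p = 0.11), and with mouse as a block it was lower in the double knockdown (-1.46 ± 0.19, adjusted p = 0.000325) and in siHnf4a cells (-0.69 ± 0.19, adjusted p = 0.0189).

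Apom, the HDL protein that carries sphingosine-1-phosphate, had 6.54, 2.20 and 1.29 TPM in double knockdown cells and 7.82, 1.66 and 1.65 TPM in siHnf4a cells. Apom stood at 17.4, 22.5 and 34.2 TPM in siCebpa cells and 14.2, 41.2 and 38.1 TPM in siCon cells. In mice 2 and 3 the Hnf4a siRNA cultures held 1.29 to 2.20 TPM, and mouse 1 was higher in those groups and lowest in siCon. Apom fell to 11.1% of siCon in the double knockdown (-3.17 ± 0.74, adjusted p = 0.0162) and to 12.4% in siHnf4a cells (-3.02 ± 0.73, adjusted p = 0.0197). Each call was lost without mouse 2 or mouse 3 of the knockdown or of siCon. In siCebpa cells the log2 fold change was -0.16 ± 0.66 (adjusted p = 0.927).

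Apon and Apof are neighbours on the plus strand of chromosome 10 (128254096 to 128270153) and moved apart. Apon, an apolipoprotein of unclear function, had 4.88, 4.10 and 5.05 TPM in double knockdown cells and 11.4, 11.8 and 8.28 TPM in siHnf4a cells. Apon stood at 12.9, 11.3 and 9.51 TPM in siCebpa cells and 21.6, 31.4 and 35.2 TPM in siCon cells. It was the 1 member that fell in each of the 3 knockdowns, to 16.1% of siCon in the double knockdown (-2.64 ± 0.22, adjusted p = 4.13e-05), 36.5% in siHnf4a cells (-1.45 ± 0.21, adjusted p = 0.00138) and 42.5% in siCebpa cells (-1.23 ± 0.21, adjusted p = 0.0115). No double knockdown culture overlapped with any other group. The siCebpa call was lost with only the compared groups and without mouse 3 of siCebpa or mouse 2 or 3 of siCon.

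Apof, known in humans as an inhibitor of lipid transfer between lipoproteins, had 145.0, 147.0 and 150.5 TPM in double knockdown cells and 188.0, 247.8 and 195.4 TPM in siHnf4a cells. Apof stood at 91.0, 110.4 and 101.6 TPM in siCebpa cells and 112.3, 175.3 and 151.5 TPM in siCon cells. The siHnf4a cultures were the highest. In TPM the siCebpa cultures were the lowest, but in CPM they overlapped with siCon. It rose in siHnf4a cells to 144.6% of siCon (0.53 ± 0.14, adjusted p = 0.0302). In the double knockdown it differed by 0.04 ± 0.14 (adjusted p = 0.892), and in siCebpa cells by -0.37 ± 0.14 (adjusted p = 0.176), which passed as lower with mouse as a block (adjusted p = 0.0439). The siHnf4a call was lost on the log2(TPM) scales, with only the compared groups, and without mouse 2 of siHnf4a or mouse 1 or 3 of siCon.

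Among the sterol transporters and HDL-modifying proteins, Abcg5 rose in siHnf4a cells and Pltp fell in siCebpa cells. Abcg5 and Abcg8 form 1 transporter that secretes sterols into bile, and they lie head to head on chromosome 17. Abcg5 had 4.40, 3.42 and 1.21 TPM in double knockdown cells and 6.70, 5.64 and 2.53 TPM in siHnf4a cells. Abcg5 stood at 1.57, 0.571 and 1.10 TPM in siCebpa cells and 1.80, 1.01 and 1.57 TPM in siCon cells. The siHnf4a cultures were above all siCebpa and siCon cultures and overlapped with the double knockdown, and the values rest on 22 to 253 counts a library. In siHnf4a cells it was 342.3% of siCon (1.78 ± 0.50, adjusted p = 0.037), and in the double knockdown 1.02 ± 0.50 (adjusted p = 0.209). The Abcg5 call was lost on the log2(TPM) scales and without mouse 1 or 2 of siHnf4a, any 1 of the siCon cultures or mouse 2 of the double knockdown. Abcg8 had 1.29 to 2.59 TPM in double knockdown cells, 1.92 to 4.75 TPM in siHnf4a cells, 0.991 to 1.71 TPM in siCebpa cells and 1.38 to 1.60 TPM in siCon cells. Its difference in siHnf4a cells was 1.00 ± 0.37 (adjusted p = 0.0971), which passed with mouse as a block (adjusted p = 0.0138).

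Pltp, the phospholipid transfer protein of plasma, had 4.33, 5.16 and 5.11 TPM in double knockdown cells and 3.79, 5.97 and 6.74 TPM in siHnf4a cells. Pltp stood at 2.48, 1.80 and 1.59 TPM in siCebpa cells and 3.39, 5.70 and 5.67 TPM in siCon cells. The siCebpa cultures were below all others. Pltp was at 42.8% of siCon there (-1.22 ± 0.27, adjusted p = 0.0302), with differences of 0.01 ± 0.26 in the double knockdown (adjusted p = 0.985) and 0.13 ± 0.26 in siHnf4a cells (adjusted p = 0.788). The call was lost with only the compared groups, on log2(TPM + 1) without a filter, and without mouse 2 of the double knockdown or of siHnf4a or mouse 2 or 3 of siCebpa or of siCon. Pltp rests on 41 to 181 counts a library and shares 13.9% of its words with Ctsa on the opposite strand, whose average was 306.2 ± 75.3 TPM in double knockdown, 295.8 ± 80.4 TPM in siHnf4a, 377.4 ± 122 TPM in siCebpa and 337.7 ± 63.6 TPM in siCon cells (SD, n = 3 each). Macrophages, whose marker sums are given with Apoe, also make Pltp, and their part in this value was not tested. The median of their markers was -1.24 in the double knockdown, -1.01 in siHnf4a and -1.20 in siCebpa cells. Beside these, Pltp had 0.01, 0.13 and -1.22.

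Abca1, which hands cholesterol and phospholipid to apolipoprotein A-I, had 19.8, 21.1 and 19.0 TPM in double knockdown cells and 26.1, 27.4 and 24.6 TPM in siHnf4a cells. Abca1 stood at 14.7, 8.48 and 5.85 TPM in siCebpa cells and 21.5, 14.2 and 13.4 TPM in siCon cells. It did not pass against siCon, although all 3 siHnf4a cultures were above the siCon cultures (0.69 ± 0.29, adjusted p = 0.138), and it passed as higher with mouse as a block (adjusted p = 0.02). Scarb1, the HDL receptor, had 116.3, 109.9 and 94.7 TPM in double knockdown cells and 123.2, 122.4 and 116.6 TPM in siHnf4a cells. Scarb1 stood at 81.0, 86.4 and 84.9 TPM in siCebpa cells and 95.5, 113.9 and 107.7 TPM in siCon cells. In TPM the siHnf4a cultures were the highest and the siCebpa cultures the lowest, with no overlap with other groups. In CPM siHnf4a overlapped with the double knockdown. Against siCon the differences were 0.05 ± 0.08 in the double knockdown, 0.22 ± 0.08 in siHnf4a and -0.16 ± 0.08 in siCebpa cells (adjusted p = 0.768, 0.108 and 0.334). Lcat, which esterifies cholesterol on HDL, had 33.8, 27.4 and 30.2 TPM in double knockdown cells and 44.1, 47.5 and 38.9 TPM in siHnf4a cells. Lcat stood at 30.8, 11.5 and 3.79 TPM in siCebpa cells and 44.1, 43.7 and 24.4 TPM in siCon cells. Its siCebpa values spread widely between mice, and the difference from siCon was -1.11 ± 0.53 (adjusted p = 0.273).

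Of the lipases, Lipc, the hepatic lipase, had a wide spread between mice, with 27.7, 8.02 and 3.43 TPM in double knockdown cells and 35.6, 18.5 and 2.56 TPM in siHnf4a cells. Lipc stood at 77.1, 14.8 and 5.68 TPM in siCebpa cells and 55.9, 30.4 and 16.7 TPM in siCon cells. Its log2 fold change in the double knockdown was -1.68 ± 1.13 (adjusted p = 0.365), and with mouse as a block -2.21 ± 0.42 (adjusted p = 0.00306). With the block it was also lower in siHnf4a cells (-1.16 ± 0.40, adjusted p = 0.0489). Lpl, the lipoprotein lipase of muscle and fat, was low with 0.688 to 1.74 TPM in double knockdown cells, 1.03 to 1.25 TPM in siHnf4a cells, 0.587 to 1.23 TPM in siCebpa cells and 0.943 to 1.37 TPM in siCon cells and passed in no comparison. Lipg, the endothelial lipase, had 1 to 8 counts a library and was not tested.

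Of the lipase inhibitors, Angptl4 fell in the double knockdown and Angptl8 rose in siHnf4a cells. Angptl4, an inhibitor of lipoprotein lipase, had 65.0, 68.0 and 40.2 TPM in double knockdown cells and 75.7, 83.0 and 49.2 TPM in siHnf4a cells. Angptl4 stood at 67.6, 104.7 and 147.5 TPM in siCebpa cells and 95.7, 173.8 and 156.1 TPM in siCon cells. Double knockdown and siHnf4a cultures were below all siCon cultures, and siCebpa overlapped with siCon. It fell to 41.1% of siCon in the double knockdown (-1.28 ± 0.31, adjusted p = 0.018). In siHnf4a cells it was -0.96 ± 0.30 (adjusted p = 0.0577, and 0.0295 with mouse as a block), and in siCebpa cells -0.25 ± 0.30 (adjusted p = 0.7). The double knockdown call was lost on log2(TPM + 1) without a filter and without mouse 3 of that group or mouse 2 or 3 of siCon. Angptl8, which takes part in the inhibition of lipoprotein lipase, had 48.2, 38.5 and 40.9 TPM in double knockdown cells and 50.4, 54.0 and 60.2 TPM in siHnf4a cells. Angptl8 stood at 25.9, 26.2 and 25.7 TPM in siCebpa cells and 29.9, 39.1 and 34.8 TPM in siCon cells. The siHnf4a cultures were above all others, and siCebpa was below all others. It rose in siHnf4a cells to 160.2% of siCon (0.68 ± 0.12, adjusted p = 0.00356), a call kept in all alternatives, while the double knockdown differed by 0.33 ± 0.12 (adjusted p = 0.0852) and siCebpa by -0.24 ± 0.12 (adjusted p = 0.284).

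The receptors Lrp1 and Vldlr did not pass against siCon. Lrp1, a large receptor for remnants, had 56.2 to 96.0 TPM in double knockdown cells, 61.2 to 91.8 TPM in siHnf4a cells, 63.3 to 102.9 TPM in siCebpa cells and 90.5 to 137.1 TPM in siCon cells. With mouse as a block it was lower in the double knockdown (-0.73 ± 0.16, adjusted p = 0.00576) and in siHnf4a cells (-0.67 ± 0.16, adjusted p = 0.00868). Vldlr, the VLDL receptor, had 8.35 to 13.7 TPM in double knockdown cells, 9.67 to 17.0 TPM in siHnf4a cells, 8.48 to 21.1 TPM in siCebpa cells and 8.91 to 10.2 TPM in siCon cells, and with the block it was higher in siHnf4a cells (0.64 ± 0.18, adjusted p = 0.0211).

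**Figure D4:**
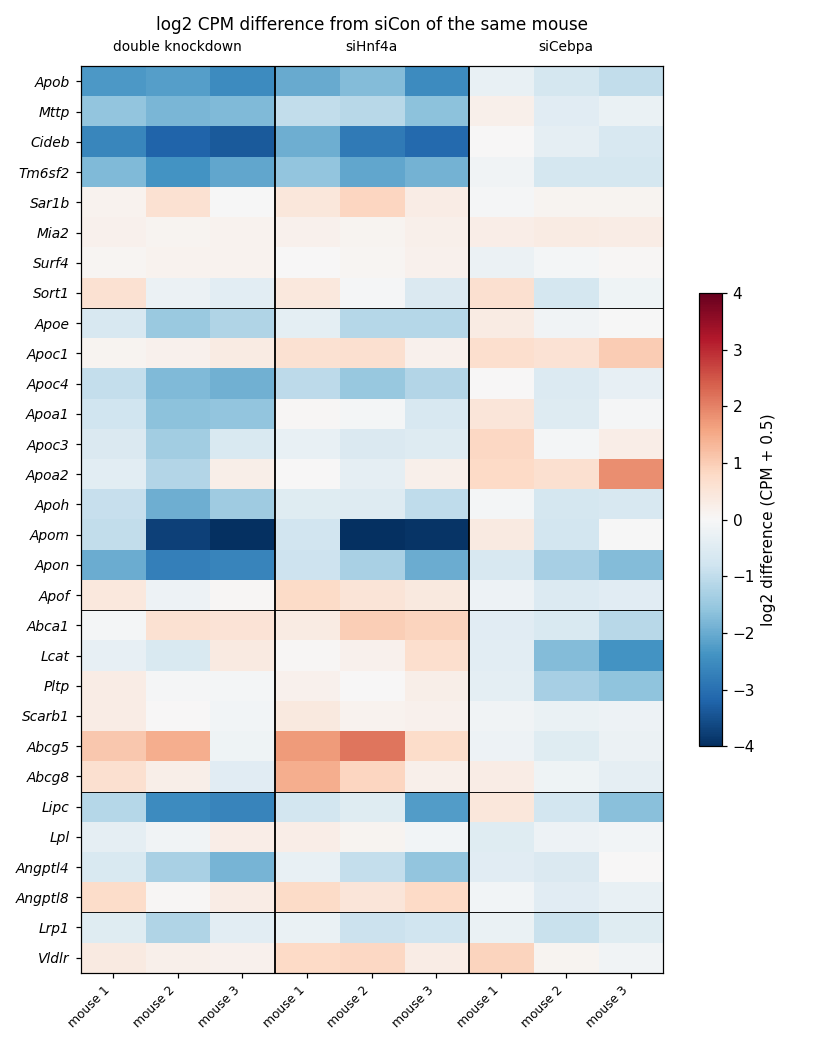
Log2 CPM difference between each knockdown and the siCon cells of the same mouse for the 30 tested lipoprotein genes (CPM + 0.5, colour from -4 to 4). Blue at Apob, Mttp, Cideb, Tm6sf2, Apoc4 and Apon appears in all 3 mice of the double knockdown and of siHnf4a, and for Apom it is weak in mouse 1.

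For Cebpa siRNA added to Hnf4a siRNA, no member passed. Cebpa averaged 54.6 TPM in the double knockdown and 15.8 TPM in siCebpa cells, so its knockdown was weaker here than with Cebpa siRNA alone. Hnf4a also stood lower in the double knockdown than in siHnf4a cells, at 11.3 to 13.6 against 16.6 to 20.9 TPM (-0.59 ± 0.28, not called). The parts of the 2 factors in the differences below cannot be told apart. Between the double knockdown and siHnf4a, 0 members were higher and 0 lower by edgeR, where 0% of all tested genes were higher and 0.00663% lower, which is 1 gene, Cebpa. At an unadjusted p under 0.05 there were 6 of 30 members and 373 of all 15090 genes, and DESeq2 called 1 member, Apon. The members' median log2 difference was -0.34, with 27 of 30 below 0, against a median of 0.01 over all tested genes. The share of all tested genes below 0 is not given. Apon differed by -1.18 ± 0.22 (95% interval -1.66 to -0.71, 3 of 3 mice lower) and Apoa1 by -1.13 ± 0.30 (95% interval -1.80 to -0.47, 3 of 3 mice lower). For Apob the difference was -0.29 ± 0.21 (95% interval -0.74 to 0.17), for Mttp -0.52 ± 0.18 (-0.91 to -0.12) and for Cideb -0.56 ± 0.27 (-1.16 to 0.04). Apof and Angptl8, the members that rose in siHnf4a cells with Abcg5, differed by -0.49 ± 0.14 (-0.81 to -0.18) and -0.35 ± 0.12 (-0.60 to -0.09). The smallest adjusted p of a member in this comparison by edgeR was 0.961, and 0.135 with mouse as a block.

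For Hnf4a siRNA added to Cebpa siRNA, Apob, Mttp, Cideb, Tm6sf2 and several apolipoproteins fell and a pair of members rose. Cebpa itself was higher in the double knockdown than in siCebpa cells (1.65 ± 0.13), so the groups differ in both factors. Between the double knockdown and siCebpa, 2 members were higher and 11 lower, where 6.51% and 6.47% of all tested genes were. With mouse as a block these were 5 and 16 members, where 13% and 14.3% of all tested genes were, and the block added Abca1, Abcg5 and Apof as higher and Apoc1, Apoc3, Apoh, Lipc and Mia2 as lower (adjusted p from 0.000387 to 0.0318). Cideb (-3.02 ± 0.28) was at 12.3% of siCebpa, Apom at 12.4%, Tm6sf2 at 27.0%, Apob at 28.5% and Mttp at 31.1%. Apoa2 fell by this comparison (-1.61 ± 0.33, adjusted p = 0.0098), as did Apoa1 (-1.40 ± 0.30, adjusted p = 0.0134), Apon (-1.40 ± 0.22, adjusted p = 0.00228), Apoe (-1.22 ± 0.23, adjusted p = 0.00695), Apoc4 (-1.36 ± 0.17, adjusted p = 0.000785) and Angptl4 (-1.03 ± 0.30, adjusted p = 0.0486). The Angptl4 call was lost in 14 of 21 alternatives. Pltp (1.23 ± 0.27, adjusted p = 0.0128) and Angptl8 (0.57 ± 0.12, adjusted p = 0.0103) were higher in the double knockdown than in siCebpa. The Angptl8 call was lost with only the compared groups, and that for Apoa1 also there and on log2(TPM + 1) without a filter. The calls for Apoa1 and Apom were lost without mouse 2 or 3 of the double knockdown, that for Apom also without mouse 3 of siCebpa, and that for Pltp without mouse 3 of siCebpa. On the log2(TPM + 1) scale 5 members were higher and 10 lower, with 1300 and 371 of all genes, against 983 and 976 from counts.

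Set directly against each other, the single knockdowns differed at Apob, Mttp, Cideb and Tm6sf2, which were lower in siHnf4a cells, and at Abcg5, Abca1 and Pltp, which were higher. In siHnf4a cells 6 members were higher and 8 lower than in siCebpa cells, where 7.51% and 8.67% of all tested genes were. With mouse as a block these were 9 and 10 members, where 14.9% and 16.3% of all tested genes were, and the block added Abcg8, Lcat and Sar1b as higher and Apoc3 and Mia2 as lower (adjusted p from 0.0028 to 0.0258). Lower in siHnf4a cells were Cideb (-2.46 ± 0.27, adjusted p = 0.000338), Tm6sf2 (-1.59 ± 0.18, adjusted p = 0.000364), Apob (-1.52 ± 0.21, adjusted p = 0.00111) and Mttp (-1.17 ± 0.18, adjusted p = 0.00184), and with them Apom, Apoa2, Apoc4 and Apoe. Higher in siHnf4a cells were Abcg5 (2.06 ± 0.51, adjusted p = 0.0197), Pltp (1.35 ± 0.27, adjusted p = 0.00712), Abca1 (1.29 ± 0.29, adjusted p = 0.0131), Scarb1 (0.37 ± 0.08, adjusted p = 0.0131), Apof (0.90 ± 0.14, adjusted p = 0.00239) and Angptl8 (0.92 ± 0.12, adjusted p = 0.000684). Abca1 stood at 24.6 to 27.4 TPM in siHnf4a cells and at 5.85 to 14.7 TPM in siCebpa cells. With only the compared groups the Abca1 and Apoe calls were lost, and on log2(TPM + 1) without a filter those for Apoe, Abcg5 and Apoa2. The Abca1 call was also lost without mouse 2 of siCebpa, that for Apoe without mouse 2 or 3 of siHnf4a, and that for Apom without mouse 2 or 3 of siHnf4a or of siCebpa. The Abcg5 call was lost without mouse 1 or 2 of siHnf4a or mouse 2 or 3 of siCebpa, and that for Apoa2 without mouse 2 or 3 of siHnf4a or mouse 1 or 3 of siCebpa. On the log2(TPM + 1) scale 8 members were higher and 8 lower, with 1596 and 472 of all genes, against 1133 and 1309 from counts.

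**Figure D5:**
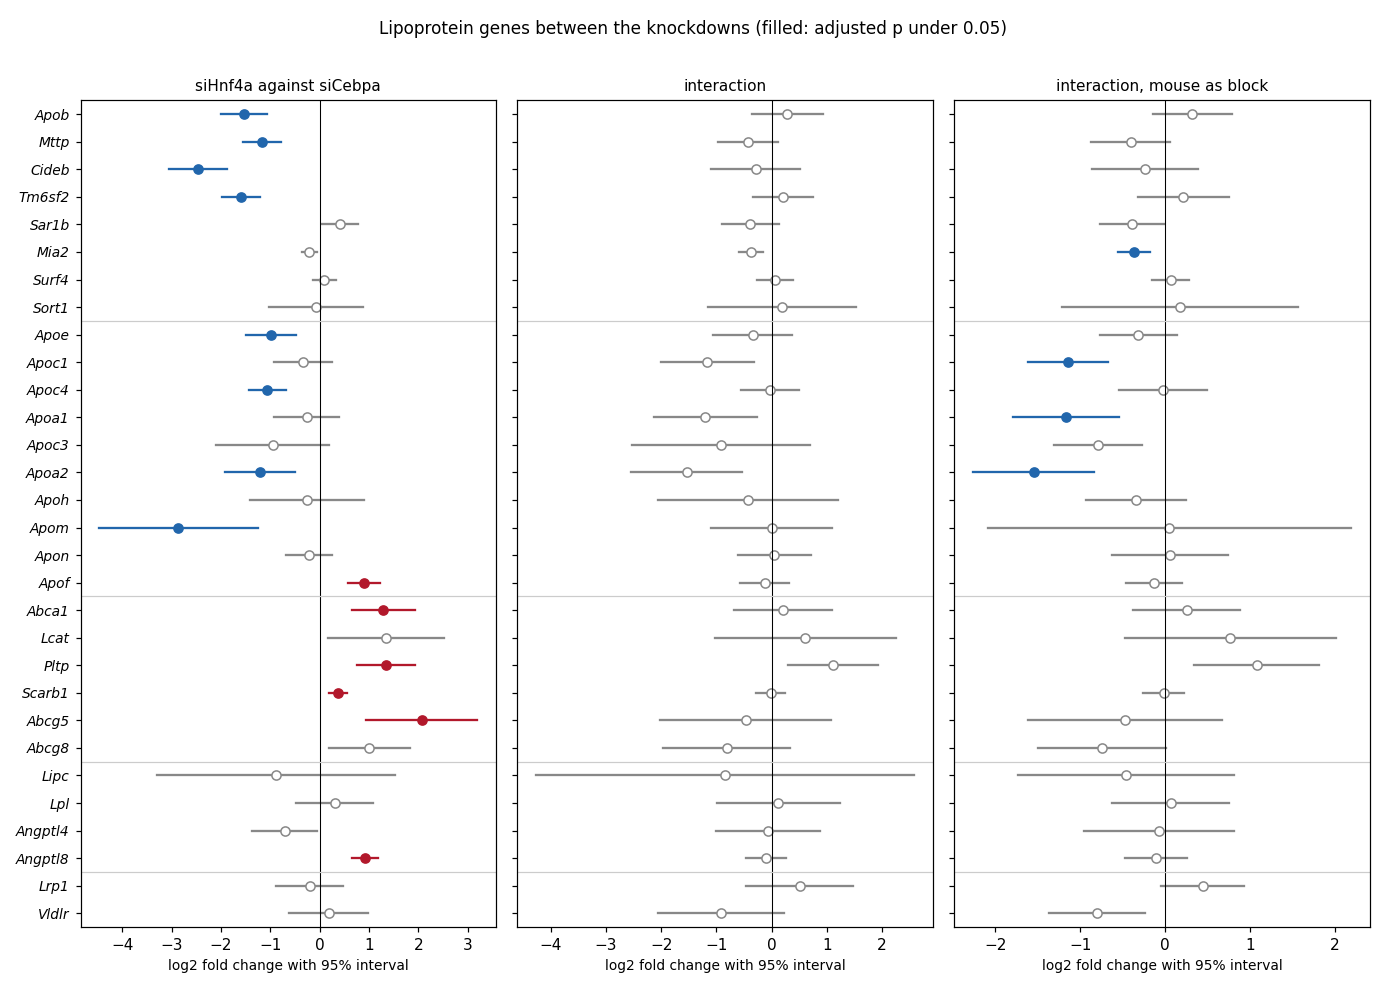
Log2 differences of the 30 tested lipoprotein genes between siHnf4a and siCebpa cells (left), and the interaction without (middle) and with mouse as a block (right), each with its 95% interval. Filled points have an adjusted p under 0.05; the interaction has 0 filled points without the block and 4 with it.

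The interaction asks whether both siRNAs together gave the sum of the single log2 changes (the double knockdown less the siHnf4a and siCebpa means, with siCon added back). Cebpa averaged 54.6 TPM in the double knockdown and 15.8 TPM in siCebpa cells, so its knockdown was not equal in these groups. Hnf4a stood lower in the double knockdown than in siHnf4a cells, which was not called. The interaction values below are therefore no test of the sum at equal knockdown. By edgeR 0 members passed, where 0.053% of all tested genes were higher and 0.0331% lower, and 5 members and 1488 of all genes had an unadjusted p under 0.05. DESeq2 called 2 members, Apoa2 and Mia2, both lower, among 107 higher and 128 lower genes in all. The members' median was -0.12, against -0.01 over all tested genes. With mouse as a block 0 were higher and 4 lower, where 1.99% and 1.83% of all tested genes were. These were Apoa2 (-1.55 ± 0.32, adjusted p = 0.0297), Apoa1 (-1.17 ± 0.28, adjusted p = 0.0475), Apoc1 (-1.15 ± 0.21, adjusted p = 0.0193) and Mia2 (-0.37 ± 0.09, adjusted p = 0.0422). Without the block their values were -1.54 ± 0.46, -1.20 ± 0.42, -1.16 ± 0.38 and -0.37 ± 0.10, with adjusted p from 0.247 to 0.369. For Apob the interaction was 0.28 ± 0.29 (95% interval -0.36 to 0.92), and for Apon 0.05 ± 0.30 (95% interval -0.61 to 0.71).

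Other genes of the pathway were read from lists beside the members. Of all tested genes, 6.9% were higher and 7.13% lower in the double knockdown, and 7.24% and 7.29% in siHnf4a cells. In siCebpa cells these shares were 2.94% and 1.72%. With mouse as a block they were, in the same order, 13.8% and 15.6%, 14.5% and 15.5%, and 8.73% and 8.11%. These shares stand beside the counts of every list below, and no set test was run. The lists overlap, so their counts are not separate. The VLDL list shares Apoa4 with the HDL list and Apoc2 with the lipolysis list. It shares Preb, Sec23a, Sec24d, Sar1a, Mia3 and Tfg with the list of the general secretory pathway. Of 24 further genes of VLDL assembly and export, 5 were higher and 3 lower in the double knockdown, 5 and 3 in siHnf4a, and 3 and 0 in siCebpa cells. Apoc2, the activator of lipoprotein lipase, which neighbours Apoc4, had 22.4, 59.6 and 93.5 TPM in double knockdown cells, 26.4, 63.0 and 91.8 TPM in siHnf4a cells, 107.3, 366.4 and 570.3 TPM in siCebpa cells and 113.9, 513.8 and 601.6 TPM in siCon cells. It fell in the double knockdown (-2.76 ± 0.77, adjusted p = 0.037) and in siHnf4a cells (-2.76 ± 0.77, adjusted p = 0.0363). In both groups Pla2g12b, which is needed for VLDL lipidation in mice, fell (-2.16 ± 0.18 in the double knockdown and -2.02 ± 0.18 in siHnf4a), as did Sec16b (-1.52 ± 0.22 and -1.50 ± 0.22), while Ces1g, a carboxylesterase, rose (1.66 ± 0.23 and 2.01 ± 0.24). The chaperones Hsp90b1 (0.66 ± 0.12) and Hspa5 (0.62 ± 0.10) and the export receptor Mia3 (0.41 ± 0.09) were the 3 that rose in siCebpa cells. They also rose in the double knockdown (1.01 ± 0.12, 0.74 ± 0.10 and 0.31 ± 0.09) and in siHnf4a cells (0.96 ± 0.12, 0.59 ± 0.10 and 0.41 ± 0.09). The list's median log2 fold change was 0.14 in the double knockdown, 0.13 in siHnf4a and 0.05 in siCebpa cells. In the blocked model 7 were higher and 4 lower in the double knockdown, 9 and 4 in siHnf4a, and 4 and 0 in siCebpa cells.

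In the LDL receptor pathway, 0 of 15 tested genes were higher and 3 lower in the double knockdown, 1 and 3 in siHnf4a, and 0 and 0 in siCebpa cells. Lsr, a lipoprotein receptor of the liver, fell (-1.03 ± 0.10 in the double knockdown and -1.04 ± 0.10 in siHnf4a). So did Furin, a proprotein convertase (-0.92 ± 0.12 and -0.80 ± 0.12). Sorl1 rose in siHnf4a cells (1.13 ± 0.31). The list's median was 0.01 in the double knockdown, 0.16 in siHnf4a and 0.04 in siCebpa cells. Under the mouse block 4 were higher and 4 lower in the double knockdown, 3 and 4 in siHnf4a, and 2 and 3 in siCebpa cells. Lsr was the most abundant gene of this list in siCon, at 549.9 TPM, and differed by -0.14 ± 0.10 in siCebpa cells (adjusted p = 0.48). Among 10 lipolysis regulators, which include Apoc2, 0 were higher and 3 lower in the double knockdown, 1 and 3 in siHnf4a, and 0 and 1 in siCebpa cells. Creb3l3, a membrane-bound factor of triglyceride metabolism, fell in each (-3.12 ± 0.23 in the double knockdown, -2.30 ± 0.22 in siHnf4a and -0.86 ± 0.21 in siCebpa). Pcsk5 fell in the double knockdown (-1.51 ± 0.22) and in siHnf4a cells (-1.05 ± 0.22), and Pcsk6 rose in siHnf4a cells (0.29 ± 0.08). The median of these 10 was -0.57 in the double knockdown, 0.04 in siHnf4a and 0.00 in siCebpa cells. Blocked by mouse, 1 was higher and 4 lower in the double knockdown, 1 and 3 in siHnf4a, and 2 and 2 in siCebpa cells.

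Of 13 tested genes of HDL formation, 0 were higher and 2 lower in the double knockdown, 0 and 1 in siHnf4a, and 0 and 0 in siCebpa cells. Pdzk1, the adaptor of the HDL receptor, fell in the double knockdown (-3.91 ± 0.99), and Serpina1a, an antitrypsin carried on HDL, fell in the double knockdown (-1.30 ± 0.29) and in siHnf4a cells (-1.05 ± 0.29). Apoa4, the most abundant of the list in siCon at 625.7 TPM, differed by 0.43 ± 0.68 in siCebpa cells (adjusted p = 0.784). The median of these 13 was -0.04 in the double knockdown, 0.08 in siHnf4a and 0.11 in siCebpa cells. In the blocked model 0 were higher and 4 lower in the double knockdown, 2 and 3 in siHnf4a, and 2 and 1 in siCebpa cells. Of 18 sterol and fatty acid sensing factors, 2 were higher and 4 lower in the double knockdown, 3 and 3 in siHnf4a, and 2 and 0 in siCebpa cells. Mlxipl, a glucose-responsive factor, fell in the double knockdown (-0.78 ± 0.13) and in siHnf4a cells (-0.57 ± 0.13). Ppard was higher in the double knockdown (0.66 ± 0.09), in siHnf4a (0.54 ± 0.09) and in siCebpa cells (0.60 ± 0.09), and Pparg likewise (0.56 ± 0.14, 0.64 ± 0.14 and 0.58 ± 0.14). Nr5a2 rose in siHnf4a cells (0.65 ± 0.18) and Foxo1 fell in the double knockdown (-0.59 ± 0.14). The median of these 18 was -0.11 in the double knockdown, 0.03 in siHnf4a and -0.13 in siCebpa cells. Under the mouse block 2 were higher and 6 lower in the double knockdown, 4 and 5 in siHnf4a, and 2 and 4 in siCebpa cells.

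Of 24 genes of the general secretory pathway, set beside Sar1b, Mia2 and Surf4, 3 were higher and 3 lower in the double knockdown and in siHnf4a alike, and 1 and 1 in siCebpa cells. The 3 that fell after Hnf4a siRNA were Sec13, a coat subunit (-0.92 ± 0.11 in the double knockdown and -0.95 ± 0.11 in siHnf4a), Ergic3 (-0.85 ± 0.12 and -0.89 ± 0.12) and Sec16a, a scaffold of exit sites (-0.58 ± 0.13 and -0.58 ± 0.13). Mcfd2, a cargo receptor subunit, rose in the double knockdown (0.46 ± 0.10) and in siHnf4a cells (0.48 ± 0.10). Tmed9 fell in siCebpa cells (-0.61 ± 0.09) and Mia3, described above, rose in each knockdown. The median of these 24 was -0.05 in the double knockdown, -0.04 in siHnf4a and 0.02 in siCebpa cells. Blocked by mouse, 3 were higher and 4 lower in the double knockdown, 3 and 5 in siHnf4a, and 1 and 4 in siCebpa cells.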

How the data were processed

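RNA-seq was made from 12 hepatocyte cultures, 3 mice in each of 4 siRNA groups. The deposited values are estimated counts and TPM per gene, 55385 genes a library. Per the submitters' processing notes the authors used Trim Galore 0.6.4, kallisto 0.4.6 and GRCm38.p6; no source used here gives the strand setting. The deposited expected counts were rounded and tested with edgeR 4.0.16 (quasi-likelihood test, TMM scaling, filterByExpr, 1 mean a group over all 12 libraries), with Benjamini-Hochberg adjustment over 15090 genes and a threshold of 0.05. TPM values deposited by the authors were used as levels. Mouse numbers mark the same animal, per the series' design text: residuals of same-mouse libraries correlated at 0.156 to 0.684 in 18 pairs. The block fit adds mouse to the model.

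Members and lists were chosen with earlier results of these data known. Every member that passed, the 5 most abundant in siCon and, per list and comparison, the called genes with the largest changes are named, except a few genes that are not reported here. Alternatives were DESeq2 1.42.0, other size factors and filters, log2(TPM + 1) and log2(TPM + 0.1) with limma 3.58.1, the compared groups alone, and leaving out each library. The script was tested on simulated data. Promoters are from RefSeq; proteins were not used here.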

Additional observations from a re-analysis of the deposited data

Results flagged for a closer look

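Apoc1 and Mia2 were picked out because Hnf4a siRNA moved all 3 mice one way in the absence of Cebpa siRNA and all 3 the opposite way in its presence. For Apoc1 the log2 effect of Hnf4a siRNA was -0.67 with Cebpa siRNA and 0.50 without it. The difference between these effects, the interaction, was -1.16 ± 0.38 (edgeR, adjusted p = 0.324), and -1.15 with mouse as a block (adjusted p = 0.0193). For Mia2 the log2 effect was -0.23 with Cebpa siRNA and 0.14 without it, an interaction of -0.37 ± 0.10 (adjusted p = 0.247), and -0.37 with mouse as a block (adjusted p = 0.0422). Neither passed without the block. Each interaction is the difference between the same effects that were used to pick Apoc1 and Mia2, so it is no separate support. The share of all tested genes that meet the rule is not given. Cebpa was also lowered less in the double knockdown than in siCebpa cells.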

How the results depend on the processing

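Of 51 calls of members over the 7 comparisons, 32 were kept when each of the 12 libraries was left out, 37 in the 9 other alternatives and 31 in all of them, and 0 reversed. Same-numbered samples come from 1 mouse, and the replicate block by mouse gave 21 called members in siHnf4a against siCon (11 without it), 8 in siCebpa against siCon (3), 21 in double knockdown against siCebpa (13) and 4 for the interaction (0). Beside the calls named in the report, the block changed no other call of a member. DESeq2 called 5 members in siCebpa against siCon, 1 in double knockdown against siHnf4a and 2 for the interaction. In siCebpa against siCon only the compared groups gave 0 members, and log2(TPM + 1) without a filter gave 1. Leaving out 1 library gave 7 to 13 members in siHnf4a against siCon, 0 to 6 in siCebpa against siCon, 7 to 10 in double knockdown against siCon, 0 to 0 against siHnf4a, 10 to 16 in double knockdown against siCebpa, 10 to 16 in siHnf4a against siCebpa, and 0 to 0 for the interaction. The siCebpa count was 0 without mouse 3 of siCebpa or mouse 2 or 3 of siCon. The 1 reversed value was Lipc in double knockdown against siCebpa, 0.0123 without siCebpa mouse 1, with a leave-one-out range of -3.45 to 0.01 and -1.71 over all libraries. The cause was not tested. Depth limits the members with under 100 counts in some libraries, which are Tm6sf2, Cideb, Apom, Apon, Abcg5, Abcg8, Pltp, Lcat, Lipc and Lpl. Sort1 and Lipg had under 100 counts in all libraries.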

Other observations

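Apoh, Apoc3 and Lipc, of the 30 tested members, had the same order of mice in all 4 groups, with mouse 1 highest and mouse 3 lowest. The same holds in any order for 8.74% of all tested genes, which is 1319 genes, against 10% of the members. Lipc had 27.7, 8.02 and 3.43 TPM in double knockdown cells and 55.9, 30.4 and 16.7 TPM in siCon cells of mice 1, 2 and 3. Markers of fat cells summed to 1.46 to 3.21 TPM in double knockdown, 0.897 to 3.31 TPM in siHnf4a, 3.62 to 16.3 TPM in siCebpa and 4.11 to 14.4 TPM in siCon cells, with Lep at 0 in all 12 libraries. Of these 4 markers 3 were under 1 TPM in every group, so the sums are in effect those of Cidec, the 1 marker tested, which was lower in the double knockdown and in siHnf4a cells than in siCon cells.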
